A study of Bos taurus with 4 samples.

Results

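The genes of the proteasome were read in sperm RNA of Murrah buffalo bulls of high and low field fertility. Every probe of the array whose gene name was PSM followed by a family letter from A to G and a number was taken as a member, together with PSMC3IP, whose name has the same form. This gave 103 probes of 48 genes, out of 51282 probes and 32429 gene names on the array, and all 48 names were found in the RefSeq gene table. The core particle had 18 genes (PSMA and PSMB), the regulatory particle 20 (PSMC and PSMD), the activators 4 (PSME), and 6 were assembly factors, an inhibitor and PSMC3IP. The rule used names only, not signals. No probe carried the name PSMA8, the alpha subunit made mainly in the testis, so its level was not analysed here.

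Total RNA of Percoll-selected spermatozoa was hybridised on 4 one-colour Agilent arrays with 60-base probes designed for cattle (Bos taurus), so buffalo RNA was read with bovine sequence. The high-fertile group was 2 pools and the low-fertile group 2 pools, each pool holding RNA of 2 bulls. Bulls were classed by the conception rate of their inseminations in the field, more than 1 standard deviation above or below the mean of the bulls evaluated. A pool of bulls hides the spread between single bulls. Every standard error (SE) below rests on the spread between pools, which limma combines with variance shared across probes, and precision is limited by the small number of arrays. All arrays lay on 1 slide, high-fertile pools in one row and low-fertile pools in the other, so fertility group and slide row cannot be told apart.

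Low-fertile pool 2 stood apart before any comparison was made. It had 13033 probes well above background, against 23228 to 25642 on the other 3 arrays, and of the 103 proteasome probes it had 19, against 40, 49 and 46 in high-fertile pool 1, high-fertile pool 2 and low-fertile pool 1. Sperm markers were only partly present: of 18 on the array, 5 (AKAP3, AKAP4, LDHC, PGK2 and SMCP) were above background in no pool. Of the 8 tested, 7 did not pass, and PRM1, the main sperm protamine, was 1.60-fold higher in the low-fertile pools (limma, adjusted p = 0.0231). Leukocyte markers were read as well. The summed signal of 14 such genes was 23198 and 22416 in the high-fertile pools, against 30367 and 29171 in the low-fertile pools. LYZ and PTPRC carried that difference, since the other 12 genes summed to 2633 and 2867 in the high-fertile pools, against 2631 and 2161 in the low-fertile pools. CD3E and CD8A were above background in no pool, 12 of the 14 could be tested, and the one that passed, PTPRC, the common leukocyte antigen, was 1.72-fold higher in the low-fertile pools (adjusted p = 0.0160). The part of cell content in the results below was not tested, and fewer cells of a type and less RNA per cell cannot be told apart in these bulk pools.

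The proteasome is the protease that degrades proteins tagged with ubiquitin. Its core is a barrel of stacked rings: outer rings of alpha subunits (PSMA), which gate the entrance, and inner rings of beta subunits (PSMB), some of which cut peptide bonds. A regulatory particle caps the barrel; its base holds a ring of ATPases (PSMC) that unfold and thread the substrate, and its lid (most PSMD subunits) carries the enzyme that removes ubiquitin. In the male germ line the proteasome takes part in the turnover of histones and cytoplasm as spermatids mature, and in spermatozoa it has been placed at the acrosome. Mature spermatozoa are largely silent in transcription, so RNA in ejaculated sperm is generally regarded as left over from earlier stages.

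Because several proteasome genes had different values at different probes, the probe sequences that matter to those values are shown first. They were read from the array's design in the scanner files, 5′ to 3′, with positions on the assembly that design names (HGSC Btau_3.1). The first set gives probes that lie upstream of the end of the transcript and were not above background in either low-fertile pool, where the brightest probe of the gene was. The probe of PSMA6 at chr21:46367642-46367701 and that of PSMB7, whose ends map to chr11:98853337-98872266 and so lie across an intron, are:
PSMA6 upstream probe: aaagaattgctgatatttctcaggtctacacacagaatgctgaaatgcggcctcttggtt
PSMB7 upstream probe: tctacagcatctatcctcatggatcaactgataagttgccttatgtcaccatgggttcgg
Against these, the brightest PSMB7 probe lies at chr11:98624298-98624357, and 30 of its bases hold the polyadenylation signal AATAAA, in capitals:
PSMB7 3′ probe: cttgctgaatgaacccAATAAAaaatgaaa

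The second set is a pair of PSMB6 probes in opposite orientation, at chr19:26938979-26939038 and chr19:26939623-26939682. The design lists the coordinates of the first in descending order and those of the second in ascending order, so they read opposite strands:
PSMB6 sense probe: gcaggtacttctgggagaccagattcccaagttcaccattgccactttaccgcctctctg
PSMB6 opposite-strand probe: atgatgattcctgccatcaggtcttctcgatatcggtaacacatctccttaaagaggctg
The third set gives the probe of PSMD4, the one member called higher, beside a probe that overlaps it by 48 bases with 47 identical. In the 30 bases shown, capitals mark the base at which they differ, C48T counted from the 5′ end of the first probe, at chr3:21068850-21068909:
PSMD4 brightest probe: tctgtaaccactgcgccCtaaataaagctt
PSMD4 overlapping probe: tctgtaaccactgcgccTtaaataaagctt
The last set gives 2 probes that were above background on the high-fertile arrays and on neither low-fertile array. The probe of PSMA2, at chr4:80909402-80909461, spans the end of the reading frame that begins at its first base, with the stop codon in capitals, and that of PSMG2 has its ends at chr24:44680300-44681147:
PSMA2 probe: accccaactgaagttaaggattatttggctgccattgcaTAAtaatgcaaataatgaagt
PSMG2 probe: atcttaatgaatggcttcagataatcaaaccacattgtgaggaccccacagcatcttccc

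Of the 48 genes, 27 had a probe that could be tested, that is, a probe detected (well above background) on both arrays of the high-fertile or of the low-fertile group, and 21 did not. This was 56.2% of the proteasome genes, beside 51.5% of all gene names. Each gene was read at its brightest tested probe, on a log2 scale on which 0 is the 75th percentile of the array, and fold changes are low-fertile against high-fertile pools. With limma and Benjamini-Hochberg adjustment over all 21033 tested probes, 11 of the 27 genes were called lower in low-fertile sperm at an adjusted p under 0.05, 1 was called higher and 15 did not pass. Over all 16685 genes tested, 16.6% were lower and 9.53% higher by the same rule. The median log2 fold change of the 27 genes was −0.49, beside 0.01 over all genes tested. Counted by probe, 16 of the 39 tested were lower and 1 was higher, beside 17.6% and 9.22% of all tested probes.

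**Figure D1:**
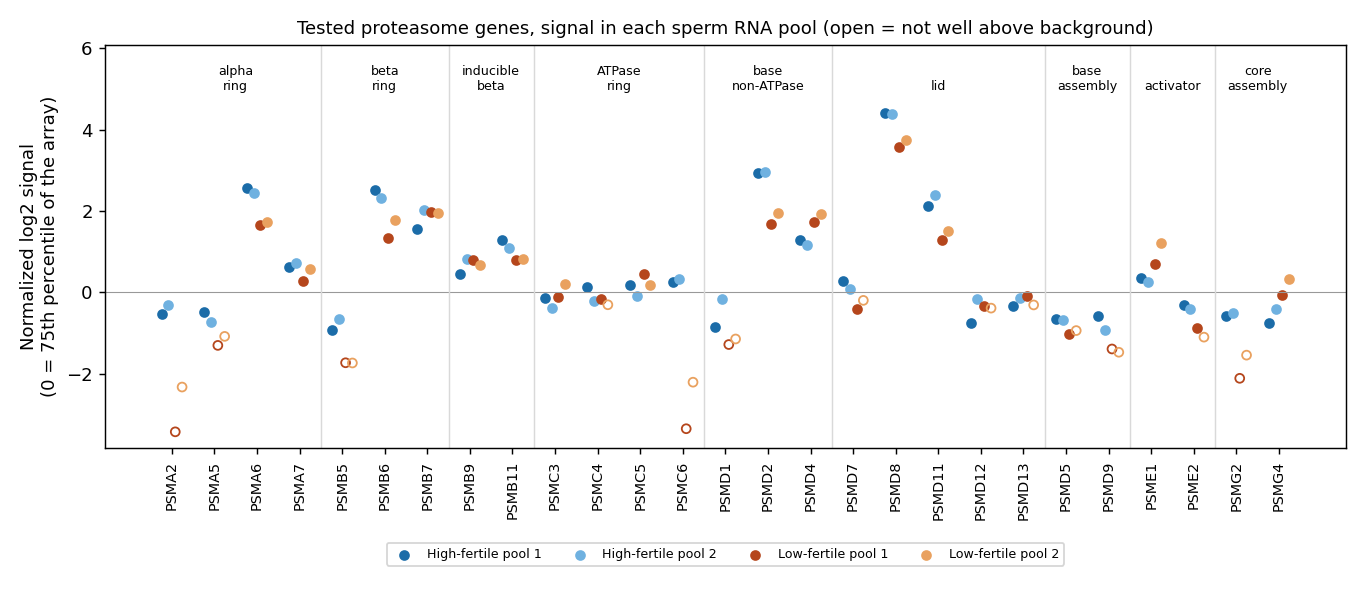
Normalised log2 signal of the 27 tested proteasome genes (x axis, by class) in each of the 4 pools; 0 is the 75th percentile of an array, and open circles mark arrays on which the probe was not well above background. The blue high-fertile points lie above the red and orange low-fertile points in 17 genes and below them in 5, and levels of different probes are not comparable.

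These counts depend on where a gene was detected, since a gene that entered through the high-fertile pair alone had to differ. The 3 kinds of detection are therefore given apart. Of the 14 genes above background on all 4 arrays, 5 were lower and 1 was higher, with a median log2 fold change of −0.07. Among all genes detected in this way, 9.32% were lower and 13.2% higher, and the median was 0.15. Of the 6 genes above background on both high-fertile arrays and 1 low-fertile array, 1 was lower, where 18.8% of all such genes were. These 6 also met the rule for testing through the high-fertile pair only. Calls of single genes or probes of this kind are therefore a description only. Of the 7 genes above background on the high-fertile pair alone, 5 were lower, where 78.9% of all such genes were, and nothing is read from that count, nor from the adjusted p or the direction of any single gene or probe so admitted, which are given below with their bounds as a description only. With these 7 genes at the smallest difference their background allows, the median over the 27 genes was −0.20.

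**Figure D2:**
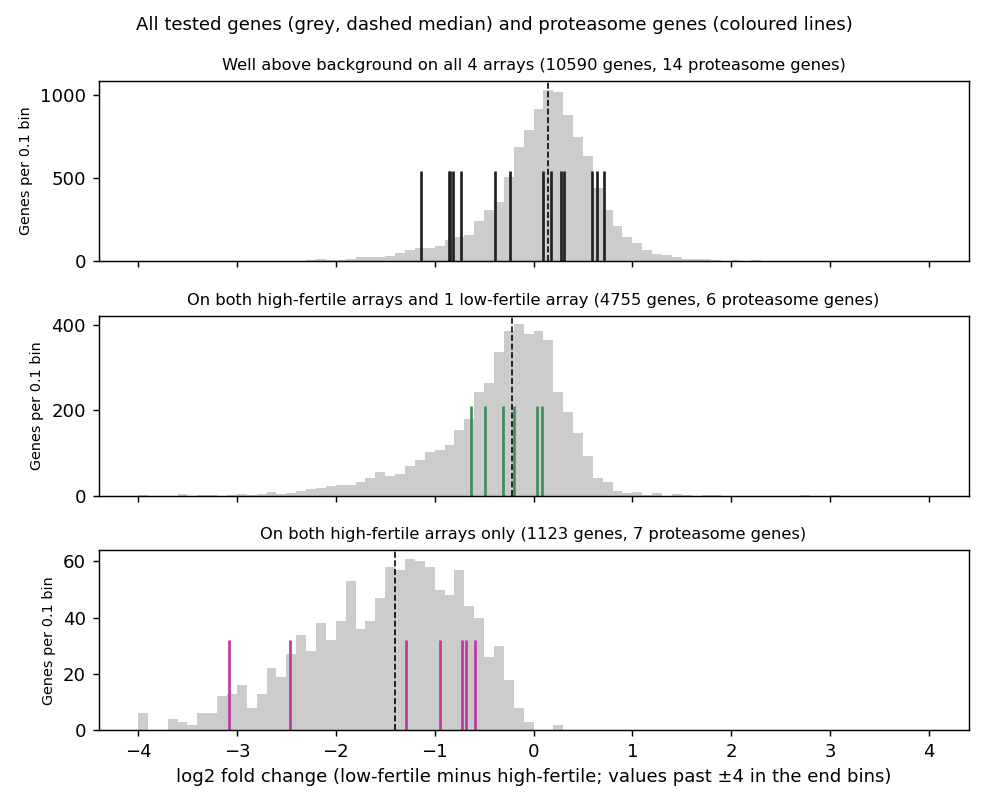
Histograms of the log2 fold change (x axis, low-fertile minus high-fertile) of all tested genes in grey, one panel for each kind of detection, with the dashed median and a coloured line for each proteasome gene; the y axis counts genes per 0.1 log2 units. In the top panel 5 of the 14 lines passed the test to the left of the dashed median at 0.15, while in the bottom panel nearly the whole distribution lies below 0.

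The pools did not overlap in 22 of the 27 genes. The low-fertile values were the smaller ones in 17 genes and the larger ones in 5, where 34.7% and 34.8% of all tested genes did so. Of the 14 genes detected on all arrays, 7 were below and 5 above, where 24.3% and 46.2% of all such genes were. With 2 pools a group, an exact permutation test of a single gene cannot give a two-sided p below 0.333, so the calls rest on the variance that limma shares across probes. The number of calls fell when a pool was left out, here and over the whole array, in fits that leave one group with a single pool assumed to vary like the other group's. Without high-fertile pool 1 the number of lower genes was 5, without high-fertile pool 2 it was 3, without low-fertile pool 1 it was 7, and without the dim low-fertile pool 2 it was 9. Over all tested probes the number lower went from 3692 to 2161, 2041, 3601 and 2999 in the same order. PSMA2, PSMC6 and PSMD2 were the 3 genes lower in each of these 4 fits, but PSMA2 and PSMC6 had entered through the high-fertile pair alone, so that only PSMD2 was also detected in the low-fertile pools. Among the 14 genes detected on all arrays, the 5 lower genes became 1, 1, 2 and 5 in the same order.

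**Figure D3:**
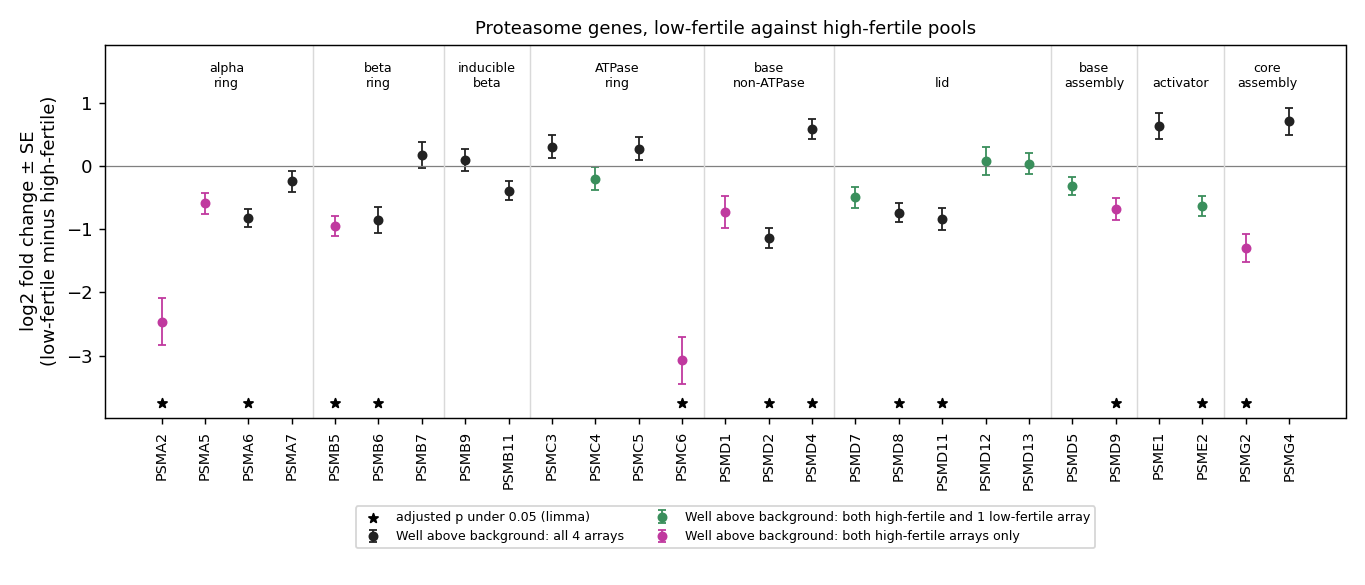
Log2 fold change with its standard error (y axis, low-fertile minus high-fertile) of the 27 tested proteasome genes, by class, coloured by the arrays on which the probe was well above background; stars mark adjusted p under 0.05. Of the 12 stars, 11 sit under points below 0 and 1 (PSMD4) under a point above it, and fitted values of the pink points carry no exact size because both low-fertile arrays were not above background.

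The core particle was read through 9 of its 18 genes, and 4 of the 9 were lower in the low-fertile pools with none higher. PSMA2 and PSMB5 among these entered through the high-fertile pair alone, and on all 4 arrays 2 of 6 genes were lower, beside 9.32% of all genes so detected. In the outer ring, PSMA6 was the member with the firmest reading. The signal of PSMA6, at chr21:46373320-46373379, was 2.57 and 2.45 in the high-fertile pools, against 1.65 and 1.74 in the low-fertile pools. Both low-fertile pools were below both high-fertile pools, by 1.76-fold (log2 fold change −0.82, SE 0.15, adjusted p = 0.0135). The call was lost when either high-fertile pool was left out, and the log2 fold change was −0.52 with normexp background correction.

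PSMA2, another alpha subunit, was read at a probe detected on the high-fertile arrays only. That probe, printed above, read −0.53 and −0.31 in the high-fertile pools, and the low-fertile arrays read −3.43 and −2.33, neither well above background. The detection limit puts the high-fertile pools at least 1.21-fold higher at this probe (adjusted p = 0.00809), and as the probe was admitted through the high-fertile pair alone, nothing is read from the call. A second PSMA2 probe, not tested, was above background on low-fertile pool 1 alone. Its processed signals were 10.6 and 13.8 in the high-fertile pools, against 17.9 and 13.5 in the low-fertile pools, and no order of the pools is read from it. That second probe is the brighter one over the 4 arrays, and with no filter on dim probes, where the gene is read there, PSMA2 had a log2 fold change of 0.44 that did not pass.

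PSMA5 and PSMA7, the other alpha subunits tested, did not pass. PSMA5 read −0.48 and −0.72 in the high-fertile pools, against −1.30 and −1.08, not well above background, in the low-fertile pools (adjusted p = 0.0538). PSMA7 read 0.63 and 0.73 in the high-fertile pools against 0.29 and 0.59 in the low-fertile pools, a log2 fold change of −0.24 with an SE of 0.17 (adjusted p = 0.322). PSMA1, PSMA3 and PSMA4 were above background on none of the 4 arrays.

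Among the constitutive beta subunits, PSMB6 was lower, PSMB7 did not pass at its brightest probe, and PSMB5 was read from the high-fertile pair alone. PSMB6, which carries the caspase-like activity, read 2.52 and 2.31 in the high-fertile pools, against 1.33 and 1.79 in the low-fertile pools. The low-fertile pools lay below, by 1.81-fold (log2 fold change −0.85, SE 0.21, adjusted p = 0.0337). The call was lost without high-fertile pool 1, high-fertile pool 2 or low-fertile pool 1, and with the median over its probes, at −0.30, while normexp background correction kept it at −0.48. PSMB5, which carries the chymotrypsin-like activity, read −0.92 and −0.66 in the high-fertile pools, against −1.73 and −1.74 in the low-fertile pools, where it was not well above background on either array. Its adjusted p was 0.0114, from which nothing is read, since 78.9% of the genes admitted through the high-fertile pair alone were called. Its high-fertile mean was no higher than the low-fertile detection limit, so no fold can be given, and the call was lost without high-fertile pool 2 and with normexp background correction.

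PSMB7, which carries the trypsin-like activity, read 1.55 and 2.03 in the high-fertile pools, against 1.97 and 1.96 in the low-fertile pools. Here the groups overlapped, with a log2 fold change of 0.17 and an SE of 0.20 (adjusted p = 0.548). Of the beta subunits without catalytic activity, none had a probe that could be tested: PSMB4 was above background in no pool, PSMB2 in high-fertile pool 2 only, and PSMB1 and PSMB3 in low-fertile pool 1 only.

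The inducible subunits PSMB8, PSMB9 and PSMB10 replace the constitutive catalytic ones in immune cells and under interferon, forming the immunoproteasome. PSMB9 was detected in all pools. It read 0.45 and 0.81 in the high-fertile pools, against 0.79 and 0.68 in the low-fertile pools, with a log2 fold change of 0.10 and an SE of 0.18 (adjusted p = 0.700). The groups overlapped, and of the leukocyte markers set beside it PTPRC was higher and the other 11 tested did not pass, as given above. PSMB10 was above background in one pool of each group, with processed signals of 23.1 and 26.5 in the high-fertile pools, against 22.1 and 14.4 in the low-fertile pools. PSMB8 likewise had no probe above background on both arrays of a group. PSMB11, the beta subunit of the thymus, read 1.29 and 1.09 in the high-fertile pools, against 0.79 and 0.82 in the low-fertile pools, a log2 fold change of −0.39 with an SE of 0.15 (adjusted p = 0.115). Its probe lies within 11.0 kb of that of PSMB5, on chromosome 10.

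The regulatory particle was read through 14 of its 20 genes, of which 5 were lower and 1 was higher. PSMC6 and PSMD9 among these entered through the high-fertile pair alone, and of the 6 genes detected on all 4 arrays 3 were lower and 1 was higher, beside 9.32% and 13.2% of all genes so detected. In the ATPase ring, PSMC6 was detected on the high-fertile arrays only. Its probe, at chr10:11289911-11289970, read 0.25 and 0.34 in the high-fertile pools, against −3.35 and −2.21 in the low-fertile pools. Neither low-fertile array was well above background, and the bound is at least 1.99-fold higher in the high-fertile pools (adjusted p = 0.00483), a call from which nothing is read, as for PSMA2. With normexp background correction the log2 fold change was −0.70, which is less than that bound.

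The other ATPases tested did not pass. PSMC3 read −0.14 and −0.38 in the high-fertile pools, against −0.11 and 0.20 in the low-fertile pools (log2 fold change 0.31, SE 0.18, adjusted p = 0.254). PSMC5 read 0.18 and −0.09 against 0.46 and 0.19 (log2 fold change 0.28, SE 0.18, adjusted p = 0.298), and with scaling to the spike-in RNA both these genes had a small negative value. PSMC4 read 0.14 and −0.20 against −0.15 and −0.30, and its pools overlapped (adjusted p = 0.447). PSMC1 was above background on low-fertile pool 1 only, and PSMC2 in one pool of each group.

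In the rest of the base, one gene of 3 was lower and one higher, both of them detected on all 4 arrays, where 9.32% and 13.2% of all such genes were. PSMD2, one of the large scaffold subunits that dock substrate carriers, read 2.95 and 2.96 in the high-fertile pools, against 1.68 and 1.96 in the low-fertile pools, at chr1:84754217-84754276. The gap between groups was several times the spread within them, and PSMD2 was 2.20-fold lower in the low-fertile pools (log2 fold change −1.14, SE 0.16, adjusted p = 0.00739). It was the one gene detected on all 4 arrays that stayed lower whichever pool was left out.

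PSMD4, the ubiquitin receptor of the same base, was the only member that passed the test as higher. It read 1.29 and 1.17 in the high-fertile pools, against 1.73 and 1.92 in the low-fertile pools. Both low-fertile pools lay above both high-fertile pools, by 1.51-fold (log2 fold change 0.59, SE 0.15, adjusted p = 0.0421), beside 9.53% of all genes called higher. The call was lost without any one of the 4 pools, where the adjusted p stayed above the threshold, with spike-in scaling, with the replicate block and with the median over its probes, at 0.13. With normexp background correction it passed at 0.23. PSMD1, the other scaffold subunit, read −0.84 and −0.15 in the high-fertile pools, against −1.28 and −1.15, not well above background, in the low-fertile pools (adjusted p = 0.0889).

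In the lid, 5 of 8 subunits were tested and 2 were lower, both of them among its 2 genes detected on all 4 arrays, where 9.32% of all such genes were lower. PSMD8 read 4.41 and 4.40 in the high-fertile pools, against 3.59 and 3.75 in the low-fertile pools, 1.67-fold lower (log2 fold change −0.74, SE 0.15, adjusted p = 0.0192). PSMD11, a scaffold of the lid, read 2.12 and 2.38 in the high-fertile pools, against 1.30 and 1.52 in the low-fertile pools, 1.79-fold lower (log2 fold change −0.84, SE 0.17, adjusted p = 0.0210). In both genes the pools were apart, and both calls were lost without high-fertile pool 1, high-fertile pool 2 or low-fertile pool 1. The other tested lid subunits did not pass: PSMD7 had a log2 fold change of −0.49 (adjusted p = 0.0768), PSMD12 of 0.09 (adjusted p = 0.782) and PSMD13 of 0.04 (adjusted p = 0.885). PSMD14, the deubiquitinating enzyme of the lid, was above background in no pool, its 2 probes giving processed signals from 4.27 to 13.5, and PSMD6 was above background in none either. PSMD3 was above background on high-fertile pool 2 only.

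Of the chaperones that assemble the base, PSMD9 was above background in the high-fertile pair only. It read −0.59 and −0.92 in the high-fertile pools, against −1.39 and −1.47 in the low-fertile pools, with an adjusted p of 0.0392 and no fold that its detection limit allows. As for PSMB5, nothing is read from that call. It was lost in each of the 4 fits that left out a pool, with normexp background correction and with other scalings. PSMD5 had a log2 fold change of −0.31 with an SE of 0.14 (adjusted p = 0.159), and PSMD10 was above background in no pool.

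Among the chaperones that assemble the core, PSMG2 read −0.57 and −0.50 in the high-fertile pools, against −2.11 and −1.54, not well above background, in the low-fertile pools. At this probe, admitted through the high-fertile pair alone, the bound is at least 1.11-fold higher in the high-fertile pools (adjusted p = 0.0123). Nothing is read from that call, which was lost without either high-fertile pool and with normexp background correction. A second PSMG2 probe, not tested, was above background on low-fertile pool 1 alone. Its processed signals were 14.7 and 11.8 in the high-fertile pools, against 18.6 and 13.0 in the low-fertile pools. The groups overlapped there, and no order of the pools is read from it. The remaining PSMG2 probe was above background on no array. PSMG4 pointed the other way, at −0.76 and −0.40 in the high-fertile pools, against −0.07 and 0.33 in the low-fertile pools, and did not pass (log2 fold change 0.71, SE 0.21, adjusted p = 0.0602). PSMG1 was above background in no pool, and PSMG3 in high-fertile pool 1 only.

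The activators open the gate of the core without ATP. PSME1 and PSME2, which form a mixed ring and lie within 5.45 kb of each other on chromosome 10, had values of opposite sign. PSME2 read −0.30 and −0.42 in the high-fertile pools, against −0.88 and −1.10 in the low-fertile pools, where 1 of the 2 arrays, low-fertile pool 1, was well above background. PSME2 was thus testable through the high-fertile pair only, a kind of detection where 18.8% of all genes were lower, and its call is a description only. With the dim array at its measured signal it was 1.55-fold lower in the low-fertile pools (log2 fold change −0.63, SE 0.16, adjusted p = 0.0368), and the call was lost without either high-fertile pool or without low-fertile pool 2, with the 75th percentile taken over detected probes (adjusted p = 0.0719), with an intensity trend and with normexp background correction, where the log2 fold change was −0.16. PSME1 read 0.35 and 0.27 in the high-fertile pools, against 0.69 and 1.20 in the low-fertile pools, so its pools were apart in the other direction, but it did not pass (log2 fold change 0.64, SE 0.21, adjusted p = 0.0746).

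PSME3, the nuclear activator, had processed signals of 4.65 and 5.82 in the high-fertile pools, against 23.0 and 14.9 in the low-fertile pools, and was above background on low-fertile pool 1 only. PSME4, the activator that directs the core to acetylated histones in spermatids, had 5 probes, and 1 of them was above background, on low-fertile pool 1 only, at 18.8 against 14.0 and 8.85 in the high-fertile pools. The inhibitor PSMF1 was above background in one pool of each group and was not tested, and PSMC3IP, a protein of meiotic recombination that is no proteasome subunit, was above background in no pool.

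The genes with more than one tested probe numbered 9, with 21 such probes in all, and in 3 of them (PSMB6, PSMB7 and PSMD4) the probes differed in sign. In PSMB7 and PSMD4 the negative probe was admitted through the high-fertile pair alone, where the low-fertile pools were both below the high-fertile ones in 95.4% of all such probes and both above in 0, so only PSMB6 had both signs at probes detected on all arrays. For PSMB7, the upstream probe printed above read −0.56 and −0.11 in the high-fertile pools, against −1.97 and −2.31 in the low-fertile pools, not well above background, a bound of at least 1.28-fold higher in the high-fertile pools (adjusted p = 0.00490) from which nothing is read, since 79.1% of the probes so admitted were called lower. The 3′ probe of PSMB7 gave 0.17, as stated.

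PSMA6 had 3 tested probes, with log2 fold changes of −0.82 and −0.75 at those above background on all arrays, both lower. The upstream PSMA6 probe read 0.11 and −0.23 in the high-fertile pools, against −2.36 and −1.81 in the low-fertile pools, not well above background, a bound of at least 1.55-fold higher in the high-fertile pools (adjusted p = 0.00448). This probe too was admitted through the high-fertile pair alone and adds nothing to the other two.

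The sense probe of PSMB6 was lower at −0.85, whereas the opposite-strand probe read 1.08 and 1.12 in the high-fertile pools, against 1.38 and 1.32 in the low-fertile pools (log2 fold change 0.25, SE 0.14, adjusted p = 0.240). The sense probe separated the groups in one direction and the opposite-strand probe in the other. What the opposite-strand probe binds is not given in the sources used here.

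For PSMD4, the second tested probe lies upstream, with its ends at chr3:21069097-21070027, and had a log2 fold change of −0.34 (SE 0.20, adjusted p = 0.253) where the brightest probe had 0.59. It was not well above background in either low-fertile pool. The probe that overlaps the brightest one with a single differing base had processed signals of 16.9 and 20.7 in the high-fertile pools, against 18.7 and 16.2 in the low-fertile pools, and was not tested. PSMA7 had 4 tested probes, and they ranged from −1.18 to −0.09. A pair of them share 53 bases without a difference, including the AATAAA signal, and still read −1.18 (SE 0.19, adjusted p = 0.0105) and −0.33 (SE 0.20, adjusted p = 0.275). Both PSMA7 probes were above background on the high-fertile pair and 1 low-fertile array, where 18.4% of all such probes were lower, so the call is a description only.

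Some other overlapping pairs gave closer values. The 2 tested probes of PSMC4 have the same 60 bases and read −0.20 and −0.32. Those of PSMB9 share 50 bases and read 0.10 and 0.18, and those of PSMD8, identical at 54 of 55 shared bases with the single difference T9G, read −0.74 and −0.59, both lower. PSMC5 read 0.28 at its brightest probe and 0.86 at another, where low-fertile pool 1 alone stood out at 0.83 against −0.70 in low-fertile pool 2. The PSMA5 pair, identical at 56 of 59 shared bases, could not be compared, since one of its probes was above background on no array. Differences between probes of one gene were not tested.

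**Figure D4:**
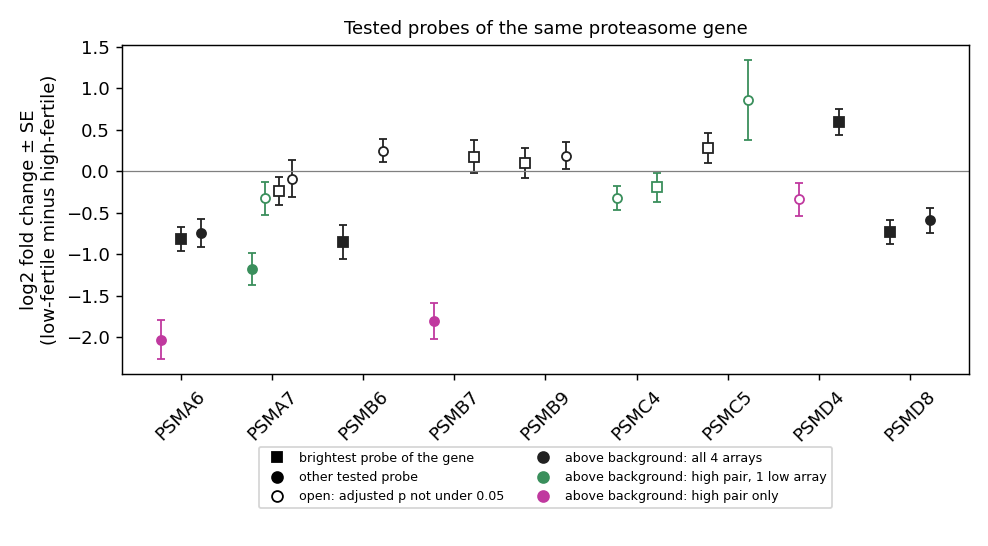
Log2 fold change with its standard error (y axis, low-fertile minus high-fertile) at each of the 21 tested probes of the 9 proteasome genes with more than one; squares are the brightest probe of a gene, filled symbols passed adjusted p under 0.05. Among genes with both probes above background on all arrays, those of PSMB6 lie at −0.85 and 0.25 and those of PSMB9 at 0.10 and 0.18; pink symbols have no exact size.

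Genes that work with the proteasome were read from a list of 31 names, of which 27 were on the array and 18 could be tested. The list was chosen with earlier results of these data known, so its shares are a description only. Of the 18, 7 were lower in the low-fertile pools and none was higher, beside 16.6% and 9.53% of all genes tested, and the median log2 fold change was −0.38. TXNL1, UFD1L and UBE3C among the 7 were above background on the high-fertile pair alone, where 78.9% of all such genes were lower. With these 3 at the smallest difference their background allows the median was −0.22. Of the 3 genes above background on both high-fertile arrays and 1 low-fertile array, 1 (USP14) was lower, beside 18.8% of all such genes. Of the 12 genes above background on all 4 arrays, 3 were lower, beside 9.32% of all such genes, and the median was −0.18. Of the 27 on the array, 6 (AKIRIN2, NPLOC4, SHFM1, UBQLN1, UBQLN4 and ZFAND5) were above background in no pool.

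RPS27A, which encodes ubiquitin joined to a ribosomal protein, read 4.38 and 4.59 in the high-fertile pools, against 3.04 and 3.09 in the low-fertile pools, 2.67-fold lower (log2 fold change −1.42, SE 0.15, adjusted p = 0.00381). UBB, a polyubiquitin gene, had a log2 fold change of −0.41 (SE 0.20, adjusted p = 0.176) and did not pass. UBA1, the enzyme that activates ubiquitin, had −0.08 and did not pass (adjusted p = 0.765).

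Proteins that bind the proteasome or bring substrates to it made up the rest. USP14, a deubiquitinating enzyme on the regulatory particle, read 0.84 and 0.80 in the high-fertile pools, against −0.95 and −0.65 in the low-fertile pools. In the low-fertile group 1 of the 2 arrays, low-fertile pool 1, was well above background. USP14 thus met the rule for testing through the high-fertile pair only, a kind of detection where 18.8% of all genes were lower. Its call is therefore a description only. With the dim array at its measured signal USP14 was 3.07-fold lower (log2 fold change −1.62, SE 0.16, adjusted p = 0.00338). With normexp background correction it was still called, at −0.52. TXNL1, a thioredoxin-like protein bound to the regulatory particle, had a bound of at least 1.13-fold higher in the high-fertile pools (adjusted p = 0.00436), with both low-fertile arrays not well above background, a call lost with normexp background correction. UBE3C, a ubiquitin ligase, also entered from the high-fertile pair alone (adjusted p = 0.0312), with no fold that its detection limit allows. Nothing is read from the calls of TXNL1 and UBE3C. The UBE3C call was lost without high-fertile pool 1, high-fertile pool 2 or low-fertile pool 2, and under several other settings, quantile normalisation among them.

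VCP, the ATPase that pulls ubiquitinated proteins out of complexes, read 3.40 and 3.26 in the high-fertile pools, against 2.29 and 2.51 in the low-fertile pools, 1.91-fold lower (log2 fold change −0.93, SE 0.16, adjusted p = 0.0120). Its cofactor NSFL1C read 3.05 and 3.17 against 2.07 and 2.33, 1.88-fold lower (adjusted p = 0.0141). The NSFL1C call was lost without either high-fertile pool, and that of VCP without high-fertile pool 1. UFD1L, another cofactor of VCP, detected on the high-fertile pair alone, had a bound of at least 1.63-fold higher in the high-fertile pools (adjusted p = 0.00643), from which nothing is read, and with normexp background correction its log2 fold change was −0.25, less than that bound. The pools of VCP and NSFL1C were apart, but the median over the probes of VCP was −0.28 and did not pass (adjusted p = 0.258). NFE2L1, the transcription factor that induces proteasome genes, had a log2 fold change of 0.35 (SE 0.14, adjusted p = 0.127), and POMP, the maturation factor of the core, of −0.18 (adjusted p = 0.517).

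**Figure D5:**
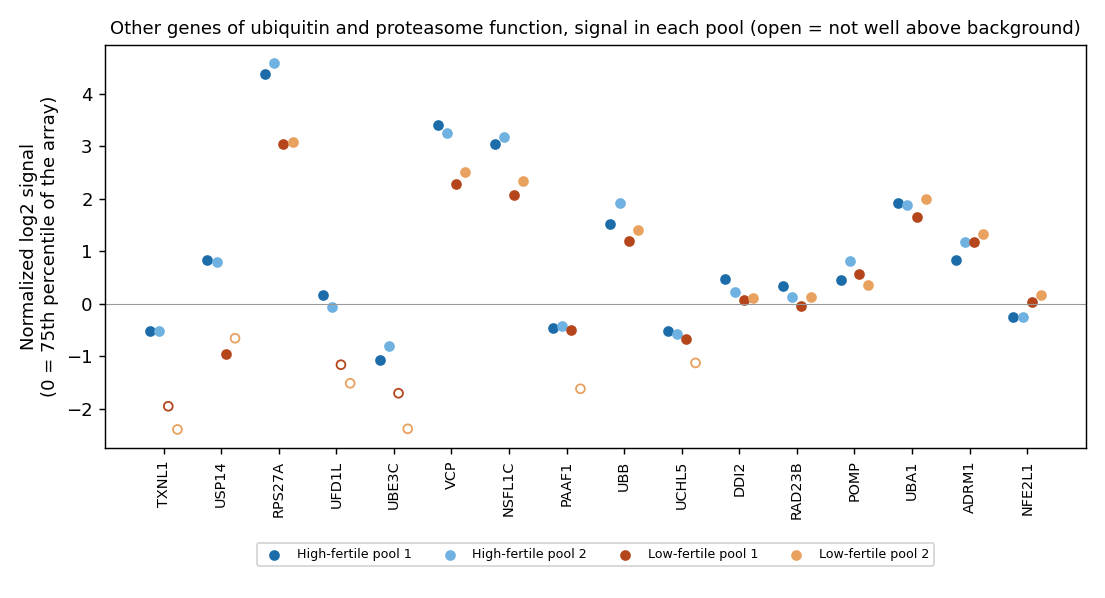
Normalised log2 signal in each pool of 16 of the 18 tested genes of ubiquitin and proteasome function, ordered by fold change; 0 is the 75th percentile of an array and open circles mark arrays on which the probe was not well above background. RPS27A separates at 4.38 and 4.59 against 3.04 and 3.09, while the 4 pools of UBA1 lie between 1.65 and 2.00.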

How the data were processed

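RNA of 4 sperm pools was read on 1 slide in 1 scan. The authors scanned the arrays and extracted spots with Feature Extraction 11.5.1.1, per the file headers, and shifted values to the 75th percentile in GeneSpring GX 12.6. The deposited scanner files hold processed intensity on a linear scale, background-subtracted by the scanner software. The value table the authors deposited is on a log2 scale and carries their shift (column medians −1.14, −1.14, −1.13 and −1.47, correlation with the recomputed values 0.997 to 0.999) and served as an alternative; its direction and scale were those of the scanner values.

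Here the log2 processed intensity was taken without outlier spots, replicate spots were averaged, and each array was set to its 75th percentile. A probe was well above background on an array where at least 0.5 of its spots were so marked, and was tested where this held on both arrays of a group. No tested probe was saturated. limma 3.58.1 in R 4.3.3 (lmFit, eBayes, prior degrees of freedom 3.52) compared the groups without covariates, with Benjamini-Hochberg adjustment over 21033 probes. On simulated data (200 of 21024 probes changed by 2 log2 units, 5 draws) it recovered 89.4% with 5.42% false calls. The simulated noise followed limma's own variance model and was alike in all pools, so these rates do not measure performance on these arrays. A gene was read at its brightest tested probe; for PSMA2 and UBE3C a brighter probe was not testable. Where both low-fertile arrays were not well above background, the fold is a bound: the high-fertile mean against, per array, the higher of the probe's own value and the lowest signal among probes well above background.

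All columns used were mapped to a sample (0 were not). The members, the pathway list and the marker lists (sperm, leukocyte, epithelial and red cell) were chosen with earlier results of these data known. Values per pool are given by rule for the 3 genes of each class with the largest change that passed, the catalytic and inducible beta subunits, PSMA7, the activators, PSMD4, PSMD14 and any gene that passed against the main direction; other values were added for completeness after they were seen. Red cell markers (7 on the array, 4 tested) had 1 higher (HBB), with ALAS2 above background in no pool. Values of a few listed genes are not reported here, and they stay in the counts and medians of their lists. Epithelial markers (8 on the array, 5 tested) had no call by limma (1 at unadjusted p under 0.05), with CDH1, EPCAM and KRT7 above background in no pool. Positions are those of the array's design (Btau_3.1), and 6 proteasome probes had none. RefSeq names were matched for 91 of 91 proteasome probes with a RefSeq accession. Nothing says whether the pools share preparation days. The p-values of limma rest on the spread between pools, combined with variance shared across probes, and not on the spread between single bulls. Alternatives were other scalings, background corrections, filters, probe choices, tests and leaving out each pool.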

Additional observations from a re-analysis of the deposited data

Results flagged for a closer look

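A set of 10 proteasome probes that entered no comparison were well above background on low-fertile pool 1 alone, the array with the most probes detected. Their processed signals there were 18.9 for PSMC1, 18.7 for PSMC5, 23.0 for PSME3, 18.8 for PSME4, 17.9 for PSMA2, 17.7 for PSMB1, 22.8 for PSMB3, 18.6 for PSMG2, 16.1 for PSMB8 and 20.0 for PSMD8. The lowest signal among probes well above background on that array was 15.7. The signal was higher on low-fertile pool 1 than on both high-fertile arrays for each of the 10 probes, which were picked for that array, and no test was made.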

How the results depend on the processing

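Main counts were 11 genes lower, 1 higher, 16 probes lower and 1 higher, with a median of −0.49. Spike-in scaling, which moved the median of all tested probes to −0.39, gave 17 genes lower, 0 genes and 0 probes higher and a median of −0.88, while the number of lower probes over the whole array rose from 3692 to 6924. Normexp background correction gave 7 genes lower, 2 genes and 2 probes higher and a median of −0.15, while the lower probes over the whole array rose to 4446, of 7295 called. With bright patches left out, 2 genes and 2 probes were higher, and with an intensity trend 3 and 3. The probes called over the whole array, 5632 in the main fit, were then 6402 and 6550, of which 4004 and 3952 were lower. Restricted to probes above background on all arrays, 5 genes and 7 probes were lower, 3 genes and 3 probes higher, median −0.071. Over the whole array this filter kept 12552 probes, of which 4339 were called, 1625 of them lower. With no filter, limma called 0 genes or probes in either direction (9278 probes at unadjusted p under 0.05, median of 48 genes −0.24), and the methods' t-test called 0 after adjustment (6084 probes unadjusted, 11 of them at the read probes of proteasome genes). The median over a gene's probes left 0 higher, where 4517 of all 16685 genes were called, 2918 of them lower. Leaving out each pool in turn gave 3 to 9 genes lower, 0 to 2 higher, 6 to 13 probes lower, 0 to 2 higher, and medians from −0.52 to −0.38. PSMD2 was lower in every fit except with no filter and with the t-test. PSMA2 and PSMC6, admitted through the high-fertile pair alone, do not enter the all-array filter, and their calls elsewhere say nothing of stability. The pool numbers of the 2 groups were not shown to pair (r = 0.01 between within-group differences, over 21024 probes), and with the replicate block 11 genes were lower and 1 higher, PSMG4 in place of PSMD4. Signs reversed with spike-in scaling for ADRM1 (−0.14), NFE2L1 (−0.029), PSMB7 (−0.21), PSMB9 (−0.28), PSMC3 (−0.076), PSMC5 (−0.11), PSMD12 (−0.29) and PSMD13 (−0.35), with normexp for PSMB9 (−0.039), with no filter, where another probe is the brightest, for PSMA2 (0.44) and UBE3C (0.38), and with the median of probes for PSMB7 (−0.81). Leaving out a pool gave −0.068 to 0.42 for PSMB7, −0.080 to 0.28 for PSMB9, −0.20 to 0.38 for PSMD12, −0.070 to 0.14 for PSMD13, −0.36 to 0.0048 for POMP and −0.25 to 0.10 for UBA1. Except for the filters and the probe choice, which change the probes read, the cause was not tested. The slide and scan block was not run, since there was 1 slide and 1 scan. Signal near background limits the 7 genes read from the high-fertile pair alone.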
